A study of Mus musculus with 2 samples.

Results

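The genes described here encode the enzymes and transporters of glucose use in the mouse lens: glucose carriers, the glycolytic enzymes, lactate dehydrogenases and lactate carriers, the kinases that control pyruvate dehydrogenase, the pentose phosphate branch and the polyol branch. They were chosen by name from a list of 41 genes, and 35 of them had a probe set annotated to that symbol alone. Where a gene had several, the one with the highest mean log2 intensity of the arrays stands for it. Of the 35 genes, 33 were measured, meaning that this probe set exceeded the median of all values (103.9, used as a floor) on at least 1 array, and all 33 exceeded it on both. They stand among 13029 measured genes and 18194 named genes. Slc2a3 (100.1 at P7 and 61.0 at P60) and Slc16a7 (50.3 and 12.2) were under the floor on both arrays. No probe set was assigned to Gpi1, Pfkfb1, Eno1, G6pdx, Akr1b3 or Sord alone, and these 6 genes were not analysed here, so neither enzyme of the polyol branch has a value.

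Lenses of wild-type C57/BL6 mice were collected at postnatal day 7 (P7), while the lens grows, and at postnatal day 60 (P60), in young adults. Total RNA of the lenses pooled at each age was labelled with biotin and hybridised to 1 Affymetrix array per age. No sex, number of animals or genetic change is given for either pool. Because each age has 1 array, no value has a replicate, no test between the ages can be made, and every difference below is one between these pools, described by its size.

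The lens has no blood vessels in adult life and lies in fluid low in oxygen. Its fibre cells lose their mitochondria and nuclei as they mature, so the tissue draws much of its ATP from glycolysis and releases lactate into the surrounding humours. Glucose enters through facilitative carriers, is trapped by hexokinase and is committed to glycolysis by phosphofructokinase. A share of it is diverted into the pentose phosphate branch, which supplies NADPH for glutathione reduction, and, when glucose is high, into the polyol branch, known for its role in sugar cataract.

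The arrays were scaled to the same trimmed mean (500.0 on both, leaving out 2% of probe sets at each end), and the floor was exceeded by 52.2% of probe sets at P7 and by 47.8% at P60. The ratio of 5′ to 3′ signal was lower at P60 for all 4 controls examined. For Gapdh, itself a member, it was 1.39 at P7 and 1.29 at P60. Beta-actin had 0.785 and 0.606, the dap spike-in 0.0995 and 0.0262, and the lys spike-in was the fourth. The part of this difference in the ratios below was not tested. Log2 ratios (P60 over P7) of different probe sets for the same gene varied with an SD of 0.58, pooled over the 4239 genes for which at least 2 probe sets exceeded the floor at both ages. That SD was 0.46 over the 288 of these genes whose mean intensity was at least 4096. It covers the reading of probe sets within this pair of arrays, and variation among mice, pools or hybridisations is not part of it. A change in RNA per cell cannot be told apart from a change in the share of cells of a type, since whole lenses were pooled.

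Most genes of glucose use did not reach 2-fold between the ages. Of the 33 measured genes 12 lay within 0.25 of 0 on the log2 scale, and 13 lay further from 0 than the SD of 0.58 between probe sets. Ratios of that size were common over all measured genes. A higher ratio than that of Tpi1 (0.62) was found for 21.6% of them, and a lower one than that of Bpgm (-0.58) for 20.4%. The group held 5 genes that were at least 2-fold higher at P60 (Pfkp, Aldoa, Pfkm, Tkt and Pdk2), against 11.5% of all measured genes, which is 1494 of 13029. In the other direction 2 were at least 2-fold lower (Slc16a1 and Pgam2), against 9.44%, which is 1230 of 13029. The members' shares of 15.2% and 6.06% lie near those of all genes, and 26 members did not reach 2-fold. The median log2 ratio was 0.24 over the members and 0.02 over all measured genes. Over the 10599 genes above the floor on both arrays, as all members were, it was 0.07. The members' median was 0.064 with the dimmest probe set of each gene, where that of all measured genes was -0.065. Without probe sets ending in _x_at or _s_at it was 0.14 over the members and 0.0086 over all measured genes. On the probe sets used, 25 of the 33 members (75.8%) had a ratio above 0, compared with 51.2% of all measured genes. The latter share also counts genes above the floor on 1 array only. Of the 16 members with 2 or more measured probe sets, 10 had every one above 0, 1 (Bpgm) had every one below 0, and 5 had probe sets on both sides. Among the 10, Hk1 and Slc2a12 each had a probe set that was under the floor at P7. The same count was not made over all genes with several probe sets, so whether 10 of 16 is unusual is not known. The member just past 2-fold was Pdk2 (log2 ratio 1.01), and the nearest ones short of it were Hk1 (0.90) and Aldoc (0.89).

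**Figure D1:**
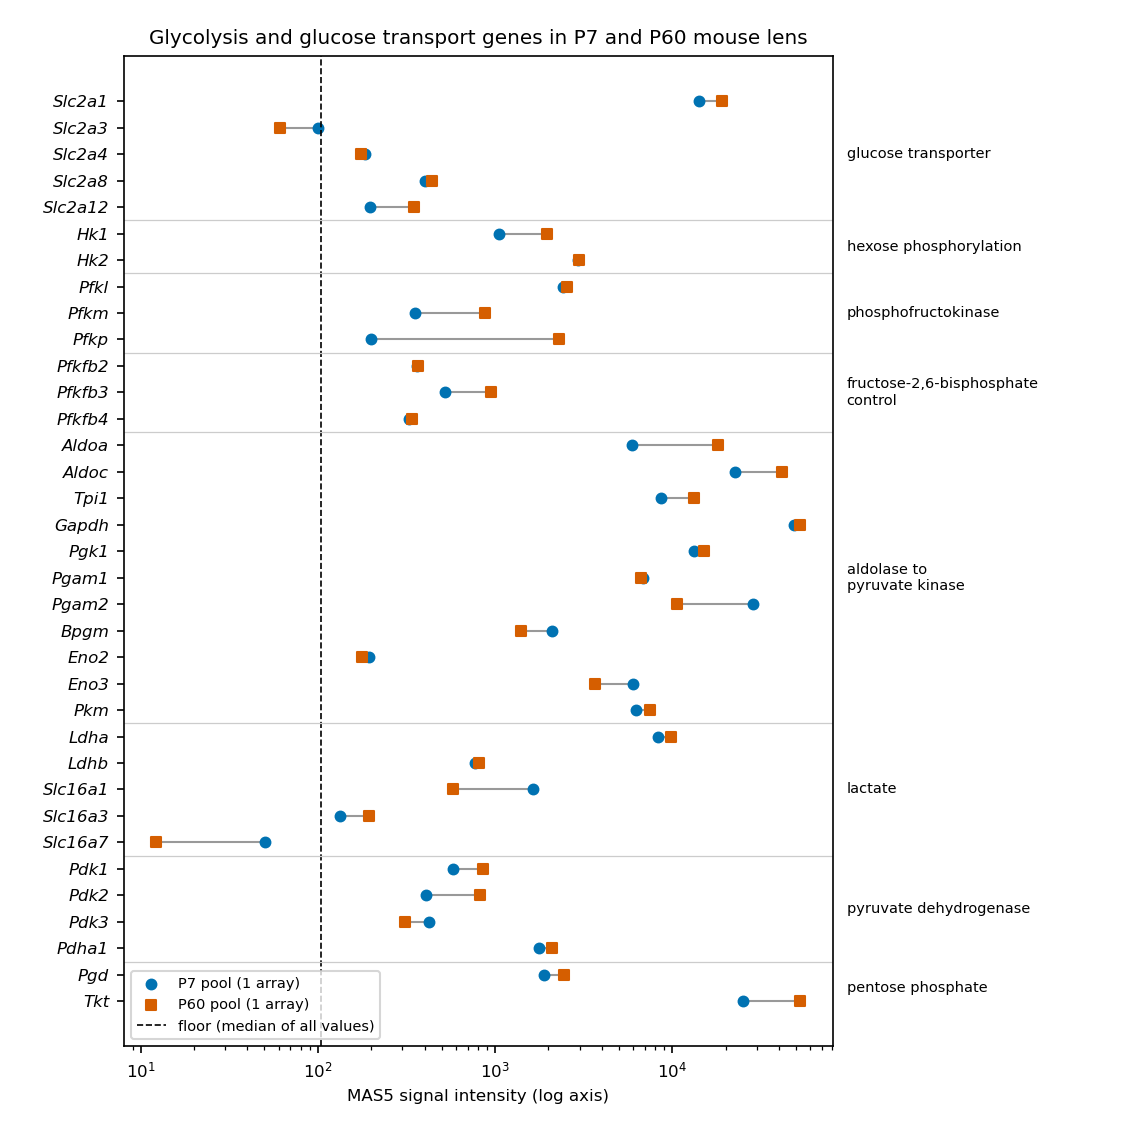
Intensity of each gene's probe set on a log axis, with a circle for the P7 array and a square for the P60 array, ordered by role and with the floor of 103.9 as a dashed line. The longest line is that of Pfkp (201 at P7 and 2298 at P60), while Pgam2 and Slc16a1 are the members whose P60 square lies furthest to the left of the P7 circle among those above the floor.

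**Figure D2:**
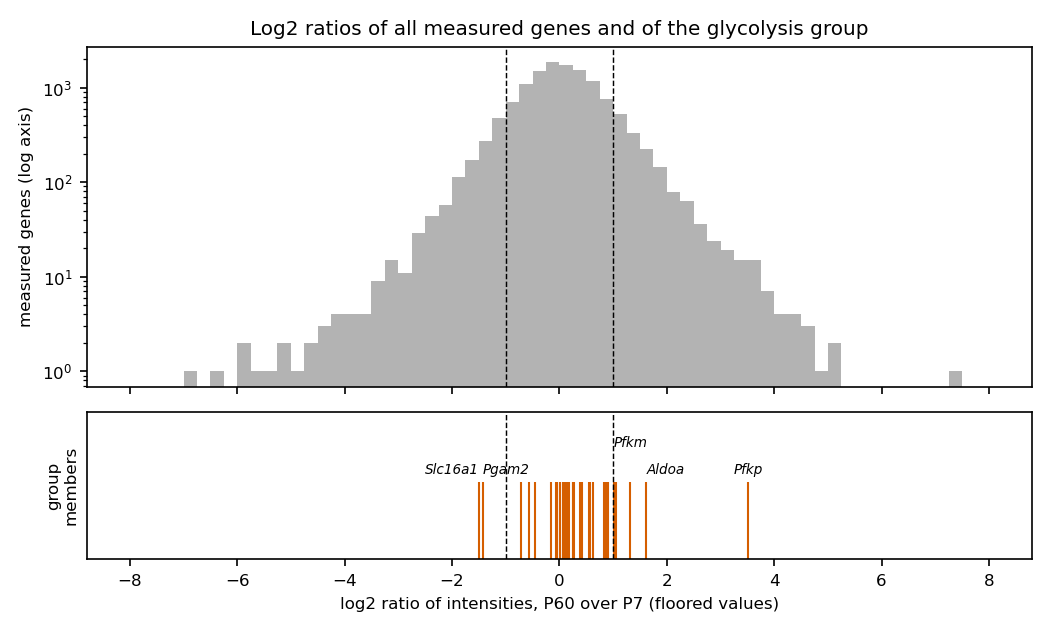
The histogram shows the log2 ratio (P60 over P7) of all 13029 measured genes, with the number of genes on a log axis, and the lines beneath it mark the 33 members. Dashed lines mark 2-fold, and 5 members lie beyond it on the right and 2 on the left.

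The start-site regions of the 4 genes past 2-fold that have a single start in the RefSeq table are shown as examples, since the other 3 have several starts. Each line gives the 250 bases before the transcription start, read 5′ to 3′ on the gene's strand, in GRCm38.p6. Capitals mark ACGTG or GCGTG, the core bound by hypoxia-inducible factors, and GGGCGG, the GC box, each searched on both strands. Pfkp lies at chr13:6648772-6649021 on the minus strand, Tkt at chr14:30548881-30549130 on the plus strand, Slc16a1 at chr3:104638414-104638663 on the plus strand and Pgam2 at chr11:5803797-5804046 on the minus strand.
Pfkp promoter: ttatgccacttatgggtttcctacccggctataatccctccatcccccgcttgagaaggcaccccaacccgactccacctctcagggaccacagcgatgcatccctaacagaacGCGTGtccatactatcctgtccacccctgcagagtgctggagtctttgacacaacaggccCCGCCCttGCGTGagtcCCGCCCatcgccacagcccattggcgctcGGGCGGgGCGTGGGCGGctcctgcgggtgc
Tkt promoter: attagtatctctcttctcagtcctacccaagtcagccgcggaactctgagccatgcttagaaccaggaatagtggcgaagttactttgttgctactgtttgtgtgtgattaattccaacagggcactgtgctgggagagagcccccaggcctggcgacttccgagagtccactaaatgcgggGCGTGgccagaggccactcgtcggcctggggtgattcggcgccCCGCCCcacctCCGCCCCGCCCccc
Slc16a1 promoter: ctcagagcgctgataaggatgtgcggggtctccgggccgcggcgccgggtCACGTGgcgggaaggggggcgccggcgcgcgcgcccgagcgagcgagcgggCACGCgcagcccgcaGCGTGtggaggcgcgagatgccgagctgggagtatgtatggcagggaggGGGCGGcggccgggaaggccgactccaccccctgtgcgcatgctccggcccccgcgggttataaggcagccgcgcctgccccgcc
Pgam2 promoter: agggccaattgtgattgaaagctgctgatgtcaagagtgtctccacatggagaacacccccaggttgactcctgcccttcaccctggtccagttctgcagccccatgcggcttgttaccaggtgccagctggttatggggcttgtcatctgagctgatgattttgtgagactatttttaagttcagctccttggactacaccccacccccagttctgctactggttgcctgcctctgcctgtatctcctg
The region of Pfkp held 3 hypoxia cores and 4 GC boxes, a core and a box running into each other near the start. That of Tkt held 1 core and 3 GC boxes. The region of Slc16a1, which was lower at P60, held 4 core matches, of which 2 are both strands of a CACGTG, and 1 GC box. Pgam2 had none of these letters in its region and 5 matches of CANNTG, the E-box bound by basic helix-loop-helix factors, which stood in 28 of the members' 47 start regions (59.6%) and in 66.2% of all. Over all members the core stood in 27 of the 32 measured genes found in the table and in 35 of their 47 start regions (74.5%), compared with 38.6% of all 32851 regions of the same length. Regions of the same gene can overlap, as those of Aldoa do, and each was counted. No count per gene was made over all genes. CACGTG, which contains the core, stood in 6 of the 47 (12.8%) and in 6.02% of all regions, and GGGCGG in 21 of the 47 (44.7%) and in 32.7%. G and C made up 58.6% of the bases in the members' regions and 53.2% in all regions. Base composition was not matched, and a match of letters is a description, not a binding site. Of the genes past 2-fold with a single region, Pfkp, Tkt and Slc16a1 had the core and Pgam2 did not. Pfkm, Aldoa and Pdk2, which were higher, had it in some of their regions and not in others. Any link between the core and the ratios was not tested.

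Among glucose carriers no measured gene reached 2-fold. Slc2a1, which encodes GLUT1, a carrier found in lens epithelium and in many barriers, had an intensity of 14241 at P7 and 19168 at P60, a log2 ratio of 0.43. Its 3 probe sets gave ratios from 0.42 to 0.65, so all lay above 0. Slc2a12, which encodes the insulin-responsive carrier GLUT12, was 198 and 351 (log2 ratio 0.82), but its other probe set, at 86.2 and 109.0, gave 0.07. Slc2a8, an intracellular carrier, was 401 and 442, and Slc2a4, the insulin-regulated GLUT4 of muscle and fat, was 184 and 176. These signals close to the floor are weakly resolved. Slc2a3, the neuronal carrier GLUT3, was under the floor on the probe set used, and 1 of its 4 probe sets passed it at P7 only (124.6 against 11.5 at P60). The median log2 ratio of the 4 measured carriers was 0.29, and 3 of them lay above 0.

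The hexokinases, which trap glucose in the cell as glucose 6-phosphate, did not reach 2-fold. Hk1, the housekeeping form bound to mitochondria, was 1050 at P7 and 1953 at P60, a 1.86-fold difference. Its dimmer probe set was 71.5 and 118.9, giving a log2 ratio of at least 0.19, as the P7 value was under the floor. Hk2, the insulin- and hypoxia-inducible form, was 2959 and 2978, with a log2 ratio of 0.01. A probe set that Hk1 shares with Rpl17, a ribosomal protein gene, and its pseudogenes was 26489 and 26895, with a ratio of 0.02, and would stand for Hk1 if shared probe sets counted.

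The phosphofructokinases, which carry out the committed step of glycolysis, held the largest ratio of the whole group. Pfkp, the platelet form, was 201 at P7 and 2298 at P60, 11.4-fold higher, and only 0.276% of all measured genes had a higher log2 ratio. The other probe sets of Pfkp went the opposite way, at 215.5 and 161.2 (log2 ratio -0.42) and at 134.4 and 24.4 (at most -0.37, as the P60 value was under the floor). The higher signal of Pfkp thus rests on 1 of 3 probe sets. Which transcripts each probe set detects was not tested. Pfkm, the muscle form, was 353 and 881 on its only probe set, 2.49-fold higher. Pfkl, the liver form, was 2423 and 2557, and its 3 probe sets stayed between -0.03 and 0.08. The ratio of Pfkm exceeded that of Pfkl by 1.24 on the log2 scale, a difference between genes for which no SD was calculated.

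Of the bifunctional enzymes that make and break down fructose 2,6-bisphosphate, the activator of phosphofructokinase, 3 were measured and none reached 2-fold. Pfkfb3, the form with the highest kinase activity, was 520 at P7 and 946 at P60, a 1.82-fold difference. Its other probe set was under the floor on both arrays. Pfkfb2, the heart form, was 362 and 366, and Pfkfb4, the testis form, was 329 and 342. Both lay within 0.06 of 0 on the log2 scale.

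From aldolase to pyruvate kinase, 11 genes were measured, with 1 past 2-fold on each side, and their median log2 ratio was 0.12. Aldoa, the aldolase of muscle and most tissues, was 5922 at P7 and 18180 at P60, 3.07-fold higher. All 5 probe sets of Aldoa were above 0, from 0.91 to 1.62, and 4 of them passed 2-fold. All of them have names ending in _x_at, the array maker's mark for probes that can match other transcripts. Aldoc, the brain aldolase, was 22503 and 41797 on its brighter probe set, 1.86-fold higher. On its dimmer probe set it was 293 and 886, 3.03-fold higher. Every probe set of both aldolases thus had a ratio above 0, by unequal amounts.

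The enzymes that follow aldolase had smaller ratios. Tpi1, the triose phosphate isomerase, was 8675 and 13297, and its 3 probe sets ranged from 0.62 to 1.22. Gapdh, which makes the NADH that lactate dehydrogenase uses, was 48541 and 52809 on the brightest of the array maker's control probe sets, and the 3 control probe sets for it ranged from 0.12 to 0.37. A probe set shared by Gapdh and its pseudogenes was 46062 and 49496 (0.10). Pgk1, the phosphoglycerate kinase, was 13290 and 15023, with ratios from 0.18 to 0.80 over its 3 probe sets. Pkm, the pyruvate kinase outside liver and red cells, was 6224 and 7482 (0.27).

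Downstream of Pgk1 the muscle-type mutase was past 2-fold on the lower side and the muscle-type enolase was not. Pgam2, the muscle phosphoglycerate mutase, was 28587 at P7 and 10605 at P60, 2.70-fold lower, and 4.09% of all measured genes had a lower log2 ratio. Pgam1, the brain and general form, was 6836 and 6623 (-0.05). The ratio of Pgam2 lay 1.38 below that of Pgam1. Eno3, the muscle enolase, was 5996 and 3666, a log2 ratio of -0.71, short of the 2-fold limit. Eno2, the neuronal enolase, was 196 and 176 (-0.15). Pgam2, Pgam1, Eno3 and Eno2 have 1 probe set each. Bpgm, which makes 2,3-bisphosphoglycerate and is best known from red cells, was 2096 and 1407, and its 3 probe sets were all below 0, from -0.62 to -0.43.

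**Figure D3:**
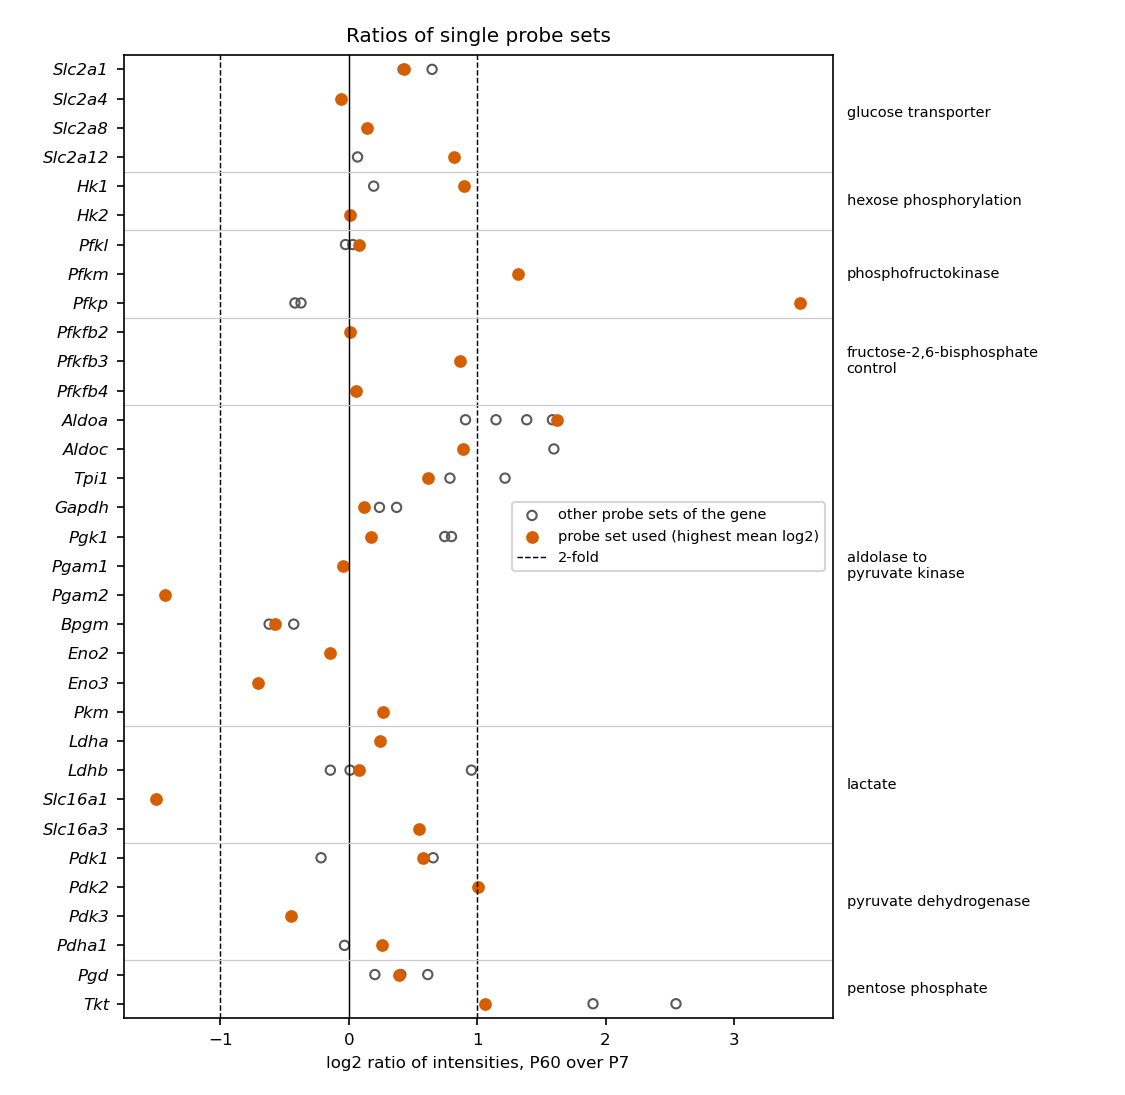
Log2 ratio (P60 over P7) of every measured probe set of the 33 genes, ordered by role, with the probe set used as a filled circle and the gene's other probe sets as open circles. Dashed lines mark 2-fold, and the filled circle of Pfkp at 3.52 stands apart from its open circles at -0.42 and -0.37, whereas the 5 circles of Aldoa and the 3 of Tkt all lie right of 0.

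Muscle markers were at or near the floor in both pools. Of 12 skeletal and ocular muscle markers 5 were measured, 1 of them (Actn3) at least 2-fold higher, with a median log2 ratio of 0.13. Their values ran from 4.59 to 234 at P7 and from 6.24 to 298 at P60, and their sum was 902 and 994. The defining genes Acta1, Ckm, Myh1, Myh2, Tnnt3 and Myog were under the floor on both arrays on the probe sets used. Another probe set of Ckm passed the floor, with a log2 ratio of 1.39. The part of muscle RNA in the ratios of Pgam2, Eno3 and Pfkm was not tested.

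For lactate, the dehydrogenases had ratios close to 0, and 1 of the carriers was past 2-fold on the lower side. Ldha, the subunit that favours lactate formation, was 8266 at P7 and 9792 at P60 (0.24). Ldhb, the subunit that favours lactate use, was 773 and 816 (0.08), and its 4 probe sets ranged from -0.14 to 0.96. Slc16a1 encodes the lactate carrier MCT1, which moves lactate with a proton across the membrane of many cells. It was 1631 at P7 and 576 at P60, 2.83-fold lower, and 3.62% of measured genes had a lower log2 ratio. Its other probe set was under the floor on both arrays. Slc16a3, which encodes the exporter MCT4 of glycolytic cells, was 133 and 193 (0.54), near the floor at both ages. Bsg encodes basigin, the chaperone that brings these carriers to the membrane, and was 7416 and 14248 (0.94), just short of 2-fold higher.

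MCT1 is abundant in vascular endothelium, and the markers of that cell type were lower in the same P60 pool. Of 12 vascular endothelial markers 10 were measured, with a median of -1.31. Of these, 6 were past 2-fold on the lower side (60%, against 9.44% of all measured genes) and 0 on the higher side. The sum and values that follow cover all 12. Their sum was 4395 at P7 and 1188 at P60, and 9 were above the floor at P7 and 3 at P60. Their values ran from 49.8 to 1086 at P7 and from 3.07 to 378 at P60. The part of these cells in the ratio of Slc16a1 was not tested. Slc2a1, found in endothelium of barrier type as well as in lens epithelium, was 14241 and 19168 in the same pools. The part of endothelium in that signal was not tested either. Of 9 erythroid markers, which bear on Bpgm and Slc2a1, 7 had a probe set of their own and 2 globin genes were measured, both at P7 only. The sum of the 7 was 560 and 342, with values from 7.56 to 179 at P7 and from 5.96 to 87.5 at P60. The defining genes Alas2, Slc4a1, Klf1 and Gata1 were under the floor on both arrays, and the part of red cells in these ratios was not tested.

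Other sources were checked in the same way, beside the 11.5% of all measured genes at least 2-fold higher and the 9.44% lower. Of 13 photoreceptor and neuronal markers with a probe set, all measured, 1 (7.69%) was at least 2-fold higher and 4 (30.8%) lower. Their median was -0.49, and their sum was 5311 and 3076. Their values ran from 12.8 to 1151 and from 7.17 to 789. Of 10 macrophage and leukocyte markers 7 were measured, 1 higher and 1 lower, with a sum of 1454 and 1411 and values from 8.88 to 420 and from 5.28 to 429. Ptprc, Cd68 and Aif1 were under the floor on both arrays. Of 8 corneal epithelial markers 7 were measured and 1, Aldh3a1, was at least 2-fold higher, from 62.6 to 18639, while Krt12, a keratin of cornea, did not exceed the floor at either age. The list holds Pax6, also a lens gene, at 5692 and 8581. Without Pax6 the sum was 996 at P7 and 19712 at P60, with values from 13.1 to 345 and from 5.80 to 18639. Most of the P60 sum is Aldh3a1 alone. The remaining measured markers were Krt5 (193 and 224), Krt14 (59.4 and 122), Upk1b (142 and 143), Dsc2 (345 and 547) and Krt6a (181 and 31.8). The part of all these sources in the ratios of the glucose genes was not tested. The lens markers were present at both ages. All 12 of them with a probe set were above the floor on both arrays. Of these, 11 were within 2-fold, but 9 of the 12 read at least 28067 at both ages, a level at which saturation was not tested. The exception, Foxe3, a transcription factor of lens epithelium, was 2.61-fold lower.

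At the branch from pyruvate to mitochondria, the pyruvate dehydrogenase kinases, which switch the complex off, did not move as one. Pdk2, the most widely expressed kinase, was 408 at P7 and 821 at P60, 2.01-fold higher on its only probe set. It fell short of 2-fold in 4 of 11 other settings, where its lowest log2 ratio was 0.95. Pdk1, a hypoxia-inducible kinase, was 578 and 861 (0.58), with 3 measured probe sets from -0.22 to 0.66. Pdk3 was 425 and 311 (-0.45). Pdha1, the catalytic subunit that these kinases phosphorylate, was 1760 and 2105 (0.26), and its other probe set gave -0.03. The ratio of Pdk2 exceeded that of Pdk3 by 1.46 on the log2 scale.

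In the pentose phosphate branch both measured genes had every probe set above 0. Tkt encodes transketolase, which links this branch back to glycolysis and is abundant in cornea. It was 25241 at P7 and 52670 at P60 on the brightest probe set, 2.09-fold higher. A dimmer probe set of Tkt was 7099 and 26540, 3.74-fold higher, and the dimmest was 435 and 2545, 5.85-fold higher. All 3 thus passed 2-fold, with larger ratios on the dimmer ones. Pgd, the phosphogluconate dehydrogenase that yields NADPH, was 1879 and 2465, and its 4 probe sets ranged from 0.20 to 0.62.

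Over the 42 genes with several such probe sets and mean intensities of at least 16384, the SD between probe sets was 0.26, compared with 0.58 at all levels. The probe sets used for Gapdh, Tkt, Aldoc, Pgam2 and Slc2a1 had mean log2 intensities in that range. Whether signals saturate at this level was not tested.

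Genes of neighbouring pathways were taken from lists. Of 15 other measured isozymes and transporters of the pathway, 1 was at least 2-fold higher and none lower, with a median of 0.05. Tigar, which lowers fructose 2,6-bisphosphate, was 2.18-fold higher on the probe set used (its others at -0.68 and 0.68), and Bsg followed it. The lowest, Slc16a6 (-0.95) and Hkdc1 (-0.92), were under the floor at P60. Of 9 genes of pyruvate entry and the pyruvate dehydrogenase complex none reached 2-fold, and the median was -0.14. Dld, the shared lipoamide dehydrogenase (-0.69), and Mpc1, a mitochondrial pyruvate carrier subunit (-0.63), were lowest. Pdp2, a phosphatase that reactivates the complex (0.58), and Pcx, pyruvate carboxylase (0.26), were highest. The probe sets of Pcx ranged from -0.46 to 1.53.

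Of 17 citric acid cycle genes 1 was at least 2-fold higher and none lower, with a median of -0.18. Suclg2, the GTP-linked succinate-CoA ligase subunit, was 1871 and 4600 (2.46-fold higher). Mdh1, the cytosolic malate dehydrogenase, had a ratio of 0.80, with -0.02 and 0.23 on its other probe sets. Suclg1 (-0.87) and Idh3a (-0.55) were lowest, the latter with probe sets up to 1.55. Of 7 other pentose phosphate genes 2 were at least 2-fold higher and none lower, with a median of -0.13. Prps2, which makes phosphoribosyl pyrophosphate, was 852 and 2721 (3.19-fold higher, with 0.45 on its other probe set), and H6pd, the dehydrogenase of the endoplasmic reticulum, was 184 and 459 (2.49-fold higher). Taldo1, transaldolase, which works beside transketolase, was 2709 and 1829 (-0.57), and Prps1 had a ratio of -0.56.

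Of 14 measured glycogen and galactose genes 3 were past 2-fold on each side (21.4% each, against 11.5% and 9.44% of all measured genes), and the median was 0.06. The phosphorylases that release glucose 1-phosphate from glycogen differed by isozyme. Pygl, the liver form, was 2916 at P7 and 16155 at P60, 5.54-fold higher. Pygb, the brain form, was 799 and 2492, 3.12-fold higher. Pygm, the muscle form, was 2648 and 932, 2.84-fold lower, so that its ratio lay 3.98 below that of Pygl. Each rests on 1 probe set, and Pygm was singled out after its value was seen. Gys1, the muscle glycogen synthase, was 344 and 57.8, at least 3.31-fold lower since the P60 value was under the floor, and Ppp1r3c, a glycogen-targeting phosphatase subunit, was 3.09-fold lower (its other probe set at -0.32).

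Of 5 measured genes of gluconeogenesis and glycerol phosphate 2 were at least 2-fold higher and none lower (median 0.15). These were Pck2, the mitochondrial phosphoenolpyruvate carboxykinase (182 and 512), and Gpd1, the glycerol phosphate dehydrogenase (600 and 1364). The other probe sets of Gpd1 gave 0.72 and 0.95, short of 2-fold. G6pc3 (-0.43) and Gpd1l (-0.02, with -1.15 on its other probe set) were lowest. Of 15 genes of the hypoxia response outside glycolysis 5 (33.3%) were at least 2-fold higher and 1 (6.67%) lower, with a median of 0.61. All measured genes gave 11.5%, 9.44% and 0.02. The list was chosen with earlier results of these data known, and a hypoxia response was not tested. Car9, a carbonic anhydrase of hypoxic cells, was under the floor at P7 (26.7) and 741 at P60, at least 7.13-fold higher. Bhlhe40, a repressor of basic helix-loop-helix type, was 4.74-fold higher. Epas1, which encodes HIF-2α and is abundant in endothelium, was 2473 and 708, 3.49-fold lower. Vegfa had a ratio of -0.88, with -0.08 on its other probe set. Hif1a was 14494 and 23989 (0.73), with probe sets from -0.45 to 1.68.

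Of 13 measured genes of glucose sensing and growth control 1 was at least 2-fold higher and 1 lower, with a median of 0.06. Irs2, an adaptor of the insulin receptor, was under the floor at P7 (80.7) and 267 at P60, at least 2.57-fold higher, followed by Txnip, which lowers glucose uptake (0.57). Akt1, a kinase downstream of insulin, was 3862 and 1796, 2.15-fold lower, with its 3 probe sets from -1.75 to 0.12. Irs1 was 12662 and 7699 (-0.72).

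**Figure D4:**
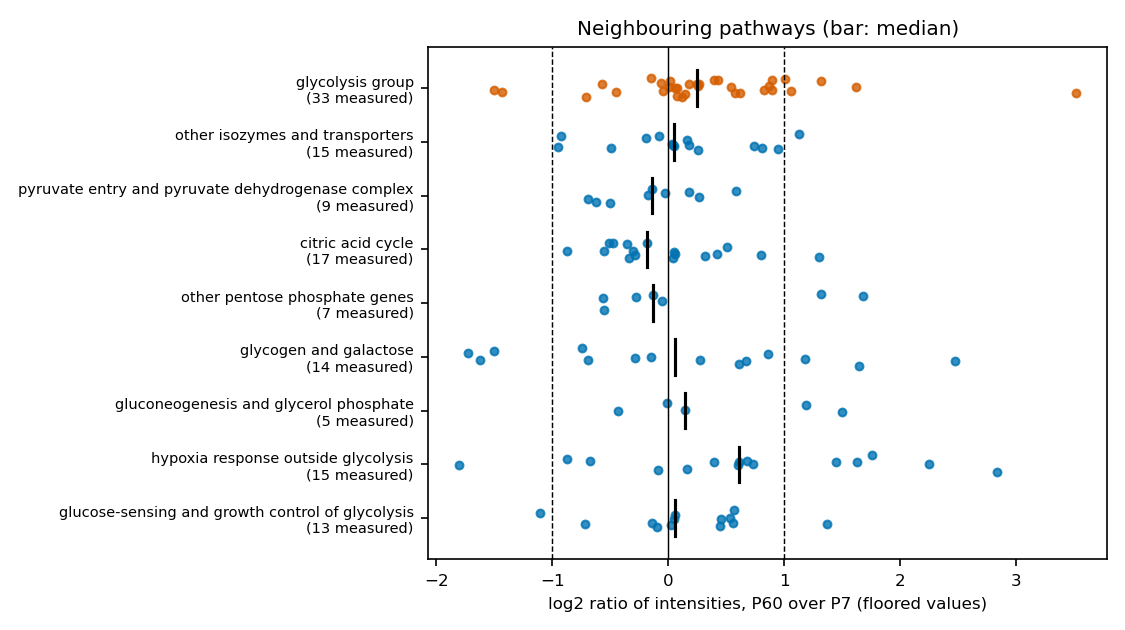
Log2 ratio (P60 over P7, floored values) of each measured gene in the glucose group and in 8 neighbouring lists, 1 point per gene with random vertical scatter, and a bar at each list's median. The medians range from -0.18 for the citric acid cycle to 0.61 for the hypoxia response, and the glycogen genes spread to both sides of 2-fold (dashed lines).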

How the data were processed

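RNA of 1 pool of lenses at P7 and 1 at P60 was measured on 1 mouse Affymetrix array each (45101 probe sets). The values are linear intensities as deposited, made with MAS5 per the submitters' processing notes; its version and settings are not given in the sources used. Precision is limited by the number of arrays. Probe sets took their names from a platform annotation table updated by gene number to RefSeq symbols of GRCm38.p6: 34958 had 1 symbol, of which 34754 matched by gene number, 932 had several and 9211 none. Per gene the probe set of 1 symbol with the highest mean log2 intensity was used. Values under the floor, the median of all values, were raised to it before log2 ratios were taken, and the resulting folds are bounds ("at least").

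A gene was called higher or lower from 2-fold on. The rule for named genes was every member, with both values for those past 2-fold and those sharing their reaction, and the 2 highest and 2 lowest genes of each neighbouring list, to which Pygm and Hif1a were added after their values were seen. The members and lists were chosen with earlier results of these data known. Start regions came from the RefSeq promoter table of GRCm38.p6, which held 37 of the 41 genes. Python 3.11.15, numpy 2.4.6 and pandas 2.3.3 were used, and the calculation was tested on simulated data. Other settings (11 in all) are given in the closing section.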

Additional observations from a re-analysis of the deposited data

How the results depend on the processing

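The alternatives were the dimmest probe set or the mean of the probe sets of a gene, probe sets with several symbols, a floor of 0.5 or 2 times the main one, a pseudocount of 16 in its place, no filter on low values, only genes above the floor on both arrays, and 2 other scalings. An alternative without probe sets ending in _x_at or _s_at was chosen after seeing the data. Over these 11 the count of higher members was 4 or 5 and of lower members 2 or 3. The members' median stayed above 0 and was 0.064 with the dimmest probe sets and 0.14 without probe sets ending in _x_at or _s_at. The medians of all measured genes in the same settings were -0.065 and 0.0086. Over all genes, 1230 lower became 1987 with 0.5 times the floor and 806 with 2 times the floor. With a pseudocount in place of the floor, 1740 of the same genes were higher and 1832 lower. With the pseudocount and no filter, so that 18194 genes were counted, 2272 were higher and 2930 lower. Pfkm, Tkt, Pgam2 and Slc16a1 stayed past 2-fold in the same direction in all 11 alternatives. Aldoa did so in 9 of the 10 that gave it a value (0.91 with the dimmest probe set). Pdk2 did so in 7 of 11, with a lowest log2 ratio of 0.95. Pfkp turned to -0.37 with the dimmest probe set, and the mean of its 3 probe sets was under 2-fold at 0.91. Tpi1 (1.22) and Aldoc (1.60) passed 2-fold with the dimmest probe set, and Aldoc also with the mean (1.25). No paired analysis was possible because each age has 1 array. Values near the floor, such as those of Slc2a4, Slc16a3 and Eno2, resolve no difference, and the reading of the brightest signals was not tested.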
